A study of Mus musculus with 60 samples.

Results

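Of the 60 fetal brain arrays of this mouse series, 30 are described here, the 15 with the highest and the 15 with the lowest lower quartile of signal. The lower quartile is the 25th percentile of all 28858 log2 values of an array, and the arrays were selected on it alone. It ran from 6.14 to 6.26 in the highest 15 and from 5.92 to 6.05 in the lowest 15. The remaining 30 arrays lay between the sets. The values just inside and outside the cut-offs were close. The lowest set ended at 6.0526 (R-tg at 0.85 mg/kg/d, replicate 5) and the next array was at 6.0533 (WT at dose 0, replicate 4). The highest set began at 6.1403 (Q-tg at dose 0, replicate 2) and the array before it was at 6.1397 (KO at dose 0, replicate 4). Since the signal of each gene entered the choice, differences between the sets are given as descriptions, with no test.

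The series asked how repeated maternal exposure to chlorpyrifos oxon (CPO), the active metabolite of an organophosphate insecticide, alters gene expression in the fetal brain, and how the CPO-hydrolysing enzyme paraoxonase 1 (PON1) bears on this. Dams of the B6.129 background were of 4 genotypes, either wild type (WT), PON1-knockout (KO), or transgenic for the R192 or the Q192 form of human PON1, named tgHuPON1R192 (R-tg) and tgHuPON1Q192 (Q-tg). The promoter of the transgene is not given in the sources used here. KO dams received CPO at 0, 0.50 or 0.75 mg/kg/d and the other genotypes 0, 0.75 or 0.85 mg/kg/d over gestational days 6 to 17, and brains were taken on day 18. Each Affymetrix Mouse Gene 1.0 ST array held the combined RNA of 1 dam's fetuses, so the dam is the replicate, with 5 in each of 12 labelled groups. Dams had been drawn by random number after those with outlying brain acetylcholinesterase activity were set aside. In 10 arrays the Pon1 level went against the genotype label, 2 of them in the highest set and 5 in the lowest, so groups are named by label.

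On such an array every transcript cluster, usually 1 per gene, is read by a set of short probes, and the signal holds both specific hybridisation and a background that depends on the bases of the probe and on the array. Genes that a tissue does not use, such as olfactory receptors in the fetal brain, lie near that background. RMA, the authors' method, corrects the background, normalizes and sums the probes on a log2 scale. A lower quartile that differs between arrays therefore concerns mainly clusters of low signal.

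The highest 15 arrays had a narrower spread of signal than the lowest 15. Their interquartile range was 2.58 to 2.79 log2 units against 2.89 to 3.12, with no overlap. That range contains the lower quartile used for the choice, so much of this gap was fixed by the choice. Their upper quartile was lower on average, 8.88 ± 0.03 against 8.96 ± 0.04 (SD, n = 15 each), with ranges of 8.82 to 8.93 and 8.92 to 9.04 that overlap. The 90th percentile, at 10.02 to 10.10 against 10.10 to 10.17, did not overlap. The array medians, at 7.43 to 7.47 against 7.38 to 7.45, did. Over the 21789 transcript clusters with exactly 1 gene symbol, the first principal component held 29.43% of the variance between the 60 arrays. Scores on it were 4.72 to 22.81 in the highest set and -23.29 to -4.34 in the lowest, so the sets lay apart on the main axis. The component was drawn from the same signals as the quartile, so this separation is a description as well. The second component held 9.75% and did not part them (-10.37 to 5.99 against -16.67 to 8.85).

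The sets were mixed in their labels. The highest 15 held 3 WT, 3 KO, 4 Q-tg and 5 R-tg arrays, and the lowest 15 held 5 WT, 4 KO, 1 Q-tg and 5 R-tg arrays. By dose, 6 of the highest and 5 of the lowest were at 0, 1 and 1 at 0.50, 3 and 5 at 0.75, and 5 and 4 at 0.85 mg/kg/d. WT at 0.75 mg/kg/d was the labelled group with 3 arrays in the lowest set and 0 in the highest, and it included the lowest array of the series (replicate 3). The highest array was WT at 0.85 mg/kg/d, replicate 4.

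**Figure D1:**
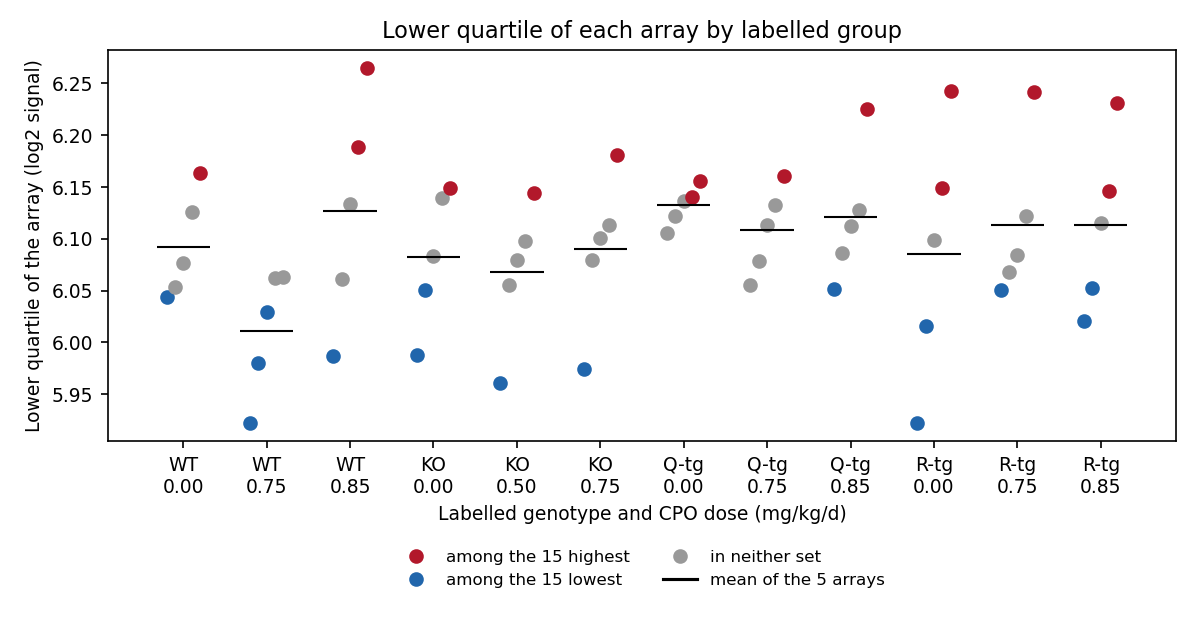
Lower quartile of each of the 60 arrays (vertical axis, log2 signal) by labelled genotype and CPO dose in mg/kg/d, with lines at the mean of each 5 arrays. Most groups hold arrays of both sets, and WT at 0.75 has 3 of the lowest 15 and 0 of the highest.

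The labels were not used in the choice, so the lower quartile could be tested against them. Genotype held 5.9% of its variance over the 60 arrays (permutation p = 0.3324), dose within genotype 13.2% (p = 0.5075), replicate number 8.8% (p = 0.2747) and the 12 groups together 18.3% (p = 0.4785). These were permutation tests of the between-group sum of squares, and each adjusted p over the 4 was 0.5075. In exact 2-sided permutation tests of 5 against 5 arrays, the smallest of 8 p-values for CPO against dose 0 was that of WT at 0.75 mg/kg/d. Its lower quartile was 6.01 ± 0.06 against 6.09 ± 0.05 (SD, n = 5 each), with 5 of 5 arrays under the control mean (exact permutation p = 0.0556, adjusted over the 8 contrasts 0.4444, smallest p allowed 0.0079). The adjusted p of the other 7 contrasts was 0.8526 to 0.8651.

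Between the sets, genes of low signal were higher in the highest 15 arrays and most genes of high signal were slightly lower. A cluster is counted here when the mean log2 levels of the sets differ by at least 0.25. That was so for 3312 of 21789 clusters, 15.2%, with 2955 higher (13.6%) and 357 lower (1.64%) in the highest set. Of these, 20 differed by 0.5 or more, 6 higher and 14 lower. The median of all clusters was -0.02, and 45.3% were higher. Clusters were called dim when their mean over the 60 arrays did not exceed 6.54, the 95th percentile of 1035 olfactory receptor clusters. Of the 6178 dim clusters 5562 were higher, with a median of 0.19. Of the 15611 brighter ones 27.7% were higher, with a median of -0.06.

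The difference followed the level of a cluster along a bent line. Level here is the mean over the 30 arrays in neither set, and clusters were ordered into 20 bins. The median difference was 0.10 at levels of 2.42 to 4.53, 0.23 at 5.72 to 6.07 and 0.13 at 6.88 to 7.15. The running median crossed 0 at a level of 7.56. The bin median was -0.09 at 8.76 to 9.02 and -0.05 above 10.62. Subtracting this running median left the SD of the difference at 0.123 in place of 0.165, so that 44.2% of the variance across clusters followed level. After the subtraction, 1327 clusters still lay 0.25 or more from 0, 484 above and 843 below, and 636 of the 3312 did so.

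**Figure D2:**
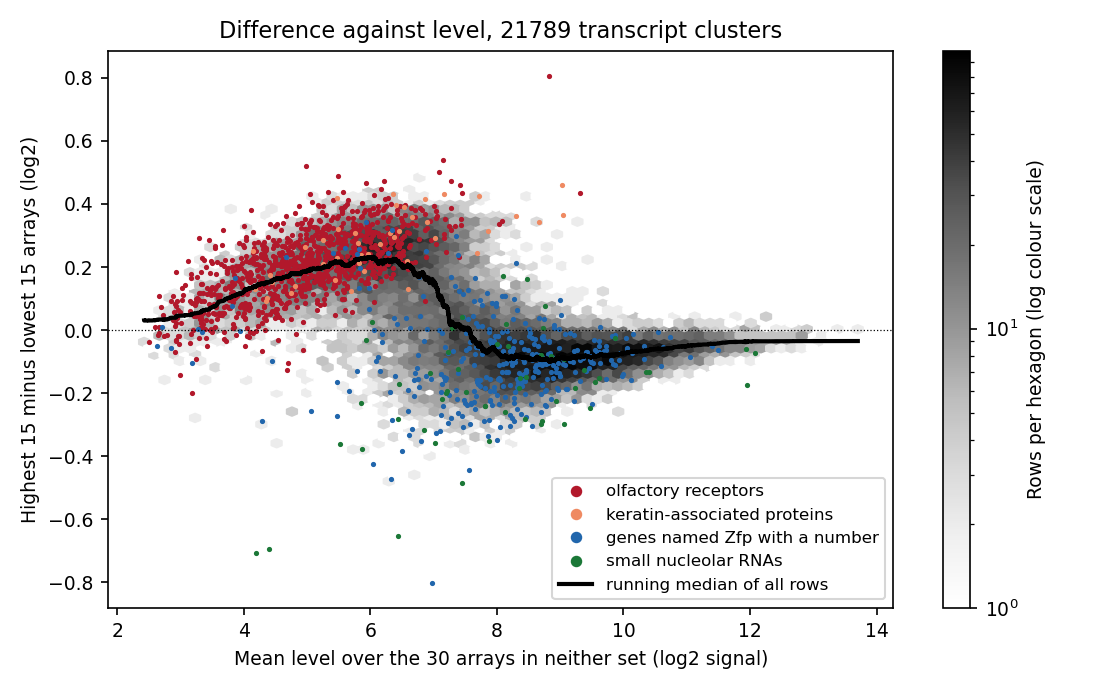
Difference between the highest and lowest 15 arrays (log2, vertical axis) against the mean level over the 30 arrays in neither set (log2 signal), with grey hexagons for the number of the 21789 transcript clusters, coloured points for 4 gene families and a line for the running median. The line is positive below a level of 7.56 and negative above it, and small nucleolar RNAs and some Zfp genes lie well below it.

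The 30 arrays in neither set were compared in the same way. Split by the same quartile, their upper and lower 15 differed by 0.048 in mean quartile, against 0.182 for the chosen sets. Of the 3312 clusters counted above, 3223 (97.3%) had the same sign in these 30 arrays. They were 2877 of the 2955 higher and 346 of the 357 lower ones, where 57.9% of all clusters were higher in the upper 15. The split was again made on the quartile of the same signals, so the dim clusters had to follow it in part. How far it fixed the signs of the brighter clusters, 1479 of the 3312, was not tested. The agreement is therefore no independent support.

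In 307 clusters (1.41%) the sets did not overlap, with all 15 highest arrays above the lowest 15 in 270 (1.24%) and below them in 37 (0.17%). The 270 had a median level of 6.94 and included 66 dim clusters. The 37 had a median level of 8.51 and included 1. Among the latter, named here after their values were seen, Kin, a zinc finger gene of the DNA damage response, ran from 6.81 to 7.20 (median 7.03) in the highest set and from 7.25 to 7.60 (7.36) in the lowest. Mrps17, which encodes a mitochondrial ribosomal protein, ran from 7.28 to 7.53 (7.41) and from 7.63 to 7.89 (7.70). Mgat4a, a gene of N-glycan branching, ran from 7.97 to 8.30 (8.19) against 8.31 to 8.66 (8.47).

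The largest differences in single named genes fell on olfactory receptor and secreted-protein genes in one direction and mostly on 1 cluster out of several of a gene in the other. The olfactory receptor gene Olfr767 had log2 levels of 8.71 to 9.68 (median 9.09) in the highest set and 7.67 to 8.80 (8.42) in the lowest, a difference of 0.81 (SE 0.11). The ranges met only at their ends. Prp2, a proline-rich protein gene, was at 8.48 to 8.99 (8.74) against 7.74 to 8.73 (8.15), a difference of 0.59 (SE 0.08). The interferon alpha gene Ifna16 was at 6.34 to 6.85 (6.57) against 5.48 to 6.32 (6.17), a difference of 0.53 (SE 0.07), and its sets did not overlap. The other genes of the 8 with the largest positive difference were the olfactory receptor genes Olfr1347 (0.54), Olfr172 (0.52) and Olfr1148 (0.50), Sbpl (0.50) and the T cell receptor segment Trav13-5 (0.50). In each of these 8, all 15 highest arrays lay above the mean of the lowest 15.

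In the other direction stood Zfp931, a zinc finger gene, at 5.56 to 6.84 (median 6.38) in the highest set and 6.32 to 7.73 (7.13) in the lowest, a difference of -0.80 (SE 0.14). No array of the highest set reached the mean of the lowest, although the ranges overlapped. A cluster of Dnajc13, an endosomal co-chaperone gene, was at 5.76 to 6.67 (6.32) against 6.44 to 7.61 (6.84), a difference of -0.71 (SE 0.12). A cluster of Ptchd1, a patched-domain gene linked to autism in humans, was at 5.60 to 6.22 (5.85) against 6.00 to 6.97 (6.48), a difference of -0.57 (SE 0.09). The rest of these 8 were clusters of Unc13c, a synaptic vesicle priming gene (-0.60), Gas5, a host gene of small nucleolar RNAs (-0.56), Dip2c (-0.52), Trdn, the muscle gene of triadin (-0.50), and the growth hormone gene Gh (-0.57).

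Most of these are 1 of several clusters of the gene, and the others differed less. Dnajc13 had 15 clusters, all lower, with differences from -0.71 to -0.01. Unc13c had 7, from -0.60 to 0.02, Gas5 had 4, from -0.56 to -0.09, and Dip2c had 5, from -0.52 to 0.07. Ptchd1 had 2, at -0.57 and -0.07. The 19 clusters of Trdn ran from -0.50 to 0.34, with 11 higher and 8 lower, so that the gene as a whole had no single direction. Of 999 genes with several clusters, 209 had a cluster past 0.25 and Trdn alone had clusters past it in both directions. In 12 of the 999 the clusters lay 0.5 or more apart.

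Gh and Pon1 entered these lists through a few arrays. Gh ran from 6.79 to 9.78 (median 6.98) in the highest set and from 6.42 to 10.73 (7.07) in the lowest, with means of 7.45 ± 1.01 and 8.02 ± 1.59 (SD, n = 15 each) that differed by less than these SDs. Pon1 ran from 4.97 to 9.99 (9.85) and from 5.29 to 10.14 (9.99), with means of 8.95 ± 1.90 and 8.50 ± 2.25. The low Pon1 arrays, 15 in the series, were 3 in the highest set and 5 in the lowest, and Pon1 was lower, not higher, in the upper 15 of the 30 arrays in neither set (-0.33). Hoxa5, expressed behind the midbrain, averaged 7.12 ± 0.66 against 6.99 ± 0.73, and the transthyretin gene Ttr, abundant in choroid plexus, 12.63 ± 0.08 against 12.66 ± 0.06. The X-linked Xist averaged 11.01 ± 1.50 against 10.71 ± 2.19 and the Y-linked Eif2s3y 7.84 ± 1.68 against 8.26 ± 1.74, and in all 6 genes the ranges overlapped. Xist too had the opposite sign in the 30 arrays (-0.15).

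With the running median taken off and dim clusters left out, other genes came forward. Above the line, beside Olfr767 (0.90), Prp2 (0.68) and Pon1 (0.54), were Pate11 (0.57), the keratin-associated protein gene Krtap5-3 (0.55), Olfr1174 (0.52), the prolactin-releasing hormone gene Prlh (0.49) and Tns1, a gene of focal adhesions (0.49). Krtap5-3 was at 9.01 to 9.48 (median 9.20) in the highest set and 8.56 to 8.96 (8.74) in the lowest. Prlh was at 8.05 to 8.41 (8.28) against 7.39 to 8.03 (7.88). Neither gene overlapped between the sets. Below the line, beside Zfp931 (-0.95) and Dnajc13 (-0.88), were Tsen15, a subunit of the transfer RNA splicing endonuclease (-0.70), Sft2d3 (-0.64), the centrosome gene Cep192 (-0.62), Pcdhb9 of the clustered protocadherins (-0.56), the Hedgehog co-receptor gene Cdon (-0.55) and Ppil6 (-0.54). Cdon was at 6.17 to 7.13 (6.74) in the highest set and 6.90 to 7.33 (7.14) in the lowest, which overlapped. Here as well some genes had other clusters. Those of Tsen15 were at -0.50 and -0.09, of Sft2d3 at -0.46 and 0.10, the 3 of Cep192 at -0.47 to -0.16 and the 6 of Tns1 at -0.03 to 0.40, before the subtraction.

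Cell types were followed through 48 gene lists with 2749 measured entries, each set beside the median of -0.02 and the 45.3% of all clusters that were higher. In a bulk pool, fewer cells of a type and less RNA per cell cannot be told apart. Neuronal genes were bright in both sets, with a mean log2 level over the neuron list of 10.89 to 10.97 in the highest arrays and 10.92 to 11.06 in the lowest, overlapping. All 16 of its genes were lower in the highest set, by a median of -0.05. After the subtraction for level this median was 0.00, and 7 of 16 lay above 0. The 4 that differed most were Uchl1, a neuronal ubiquitin hydrolase gene (-0.09), Elavl4 (-0.09), the neurofilament gene Nefm (-0.09) and Snhg11 (-0.07).

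Other lists of brain cells likewise had small medians. In the synapse list 25 of 26 genes were lower, with a median of -0.06. Its exception was Shank2, a scaffold gene of the postsynaptic density, at 8.73 to 9.11 (median 8.92) in the highest set against 8.50 to 8.81 (8.66), a difference of 0.26 (SE 0.03) in overlapping ranges. Of 15 cortical projection neuron genes 14 were lower (median -0.09, but 0.00 in the 30 arrays in neither set). Among them were Neurod6 (-0.14), Neurod1 (-0.13) and Tle4 (-0.11), while Emx1 was at 0.17. Of 14 GABA neuron genes 11 were lower (median -0.03, but 0.04 after quantile normalization between arrays), led by Calb2 (-0.15) and Dlx6 (-0.10, but 0.00 in the 30 arrays in neither set). Radial glia and astrocyte genes (16 of 22 lower, median -0.03, but 0.02 after that normalization) included Nes (-0.17, but 0.05 in those 30 arrays) and Aldh1l1 (-0.14). With level taken off, the medians of these 4 lists lay between -0.01 and 0.05.

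Dividing cells and non-neuronal brain cells had lists that were mostly lower, lists that split and 1 that was mostly higher. Of 25 cell cycle genes 23 were lower (median -0.09, but -0.03 beside level and 0.00 in the 30 arrays in neither set). They were led by the spindle checkpoint gene Bub1 (-0.22), Tpx2 (-0.21) and Cenpe (-0.17). Bub1 ran from 7.59 to 8.11 (median 7.88) against 7.94 to 8.27 (8.11). Vascular and pericyte genes were lower in 21 of 24 (median -0.06, but 0.01 after quantile normalization) and meningeal and fibroblast genes in 15 of 16 (-0.07), among them the endothelial gene Pecam1 (-0.12) and Lum, which encodes a collagen-binding proteoglycan (-0.25). Microglial genes split, 8 higher and 9 lower, with Trem2 at 0.19 and Fcrls at -0.17 (0.04 in the 30 arrays in neither set). Oligodendrocyte lineage genes split as well, 6 higher and 9 lower, and the myelin genes Mog (0.38) and Mobp (0.25) led the higher ones from levels of 6.76 and 6.30. Ependymal and cilia genes were higher in 12 of 16 (median 0.07, but -0.09 beside level and -0.05 after quantile normalization), with Ccdc153 at 0.23 and Enkur, a gene of sperm and ciliary axonemes, at -0.24.

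Lists of tissues outside the brain were higher. Dim genes made up 12 of 16 in the liver list, 10 of 16 in retina and lens, 11 of 19 in bone, 7 of 13 in the erythroid list and 9 of 22 in muscle. Muscle genes were higher in 21 of 22 (median 0.21), liver and plasma protein genes in 15 of 16 (0.22), retina and lens genes in 16 of 16 (0.17), erythroid genes in 10 of 13 (0.22) and genes of bone, cartilage and nasal mucosa in 14 of 19 (0.21). Summed as a list mean, muscle genes were at 6.79 to 6.94 in the highest set and 6.52 to 6.73 in the lowest, and liver genes at 6.68 to 6.87 and 6.47 to 6.66, with no overlap. The other 3 list means overlapped, at 6.30 to 6.54 against 6.18 to 6.33 for retina and lens, 6.58 to 6.79 against 6.41 to 6.63 for erythroid genes, and 6.96 to 7.11 against 6.76 to 7.38 for bone, cartilage and nasal mucosa. In the last, an array of the lowest set lay above every array of the highest. After the subtraction for level the 5 medians were 0.01 to 0.06. The muscle troponin gene Tnni2 ran from 7.57 to 7.86 (median 7.67) against 6.90 to 7.49 (7.28), with no overlap. The fibrinogen gene Fga ran from 6.30 to 6.73 (6.48) against 5.84 to 6.39 (6.13), and overlapped.

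Among brain regions, hindbrain and spinal cord genes were higher in 20 of 20 (median 0.23), of which 10 were dim. Hoxd4 ran from 6.31 to 6.73 (median 6.36) against 5.83 to 6.27 (6.08) with no overlap, and Hoxc8 from 5.82 to 6.47 (6.19) against 5.44 to 6.03 (5.82). After the subtraction the median was 0.04, with 16 of 20 above 0. Pituitary genes were higher in 12 of 13 (median 0.27), and 5 of the 13 were dim. Beside level their median was 0.09, with 8 of 13 above 0. Their list means overlapped, at 6.53 to 6.86 against 6.12 to 6.81. Lhb, which encodes the luteinizing hormone beta chain, was at 7.36 to 7.80 (7.56) against 6.75 to 7.49 (7.14). Gh, the abundant gene of that list, was the one lower member. Hypothalamic peptide genes were higher in 12 of 15 (median 0.13, but -0.02 after quantile normalization), and the oxytocin gene Oxt ran from 7.98 to 8.38 (8.14) against 7.62 to 7.97 (7.75), without overlap. Choroid plexus genes were higher in 10 of 14 (median 0.11, and 0.00 beside level), while Otx2 was at -0.15. Cerebellar genes went the other way, with 11 of 16 lower (median -0.06, and 0.00 beside level), although the 4 that differed most were higher, led by the Purkinje cell gene Pcp2 (0.24).

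**Figure D3:**
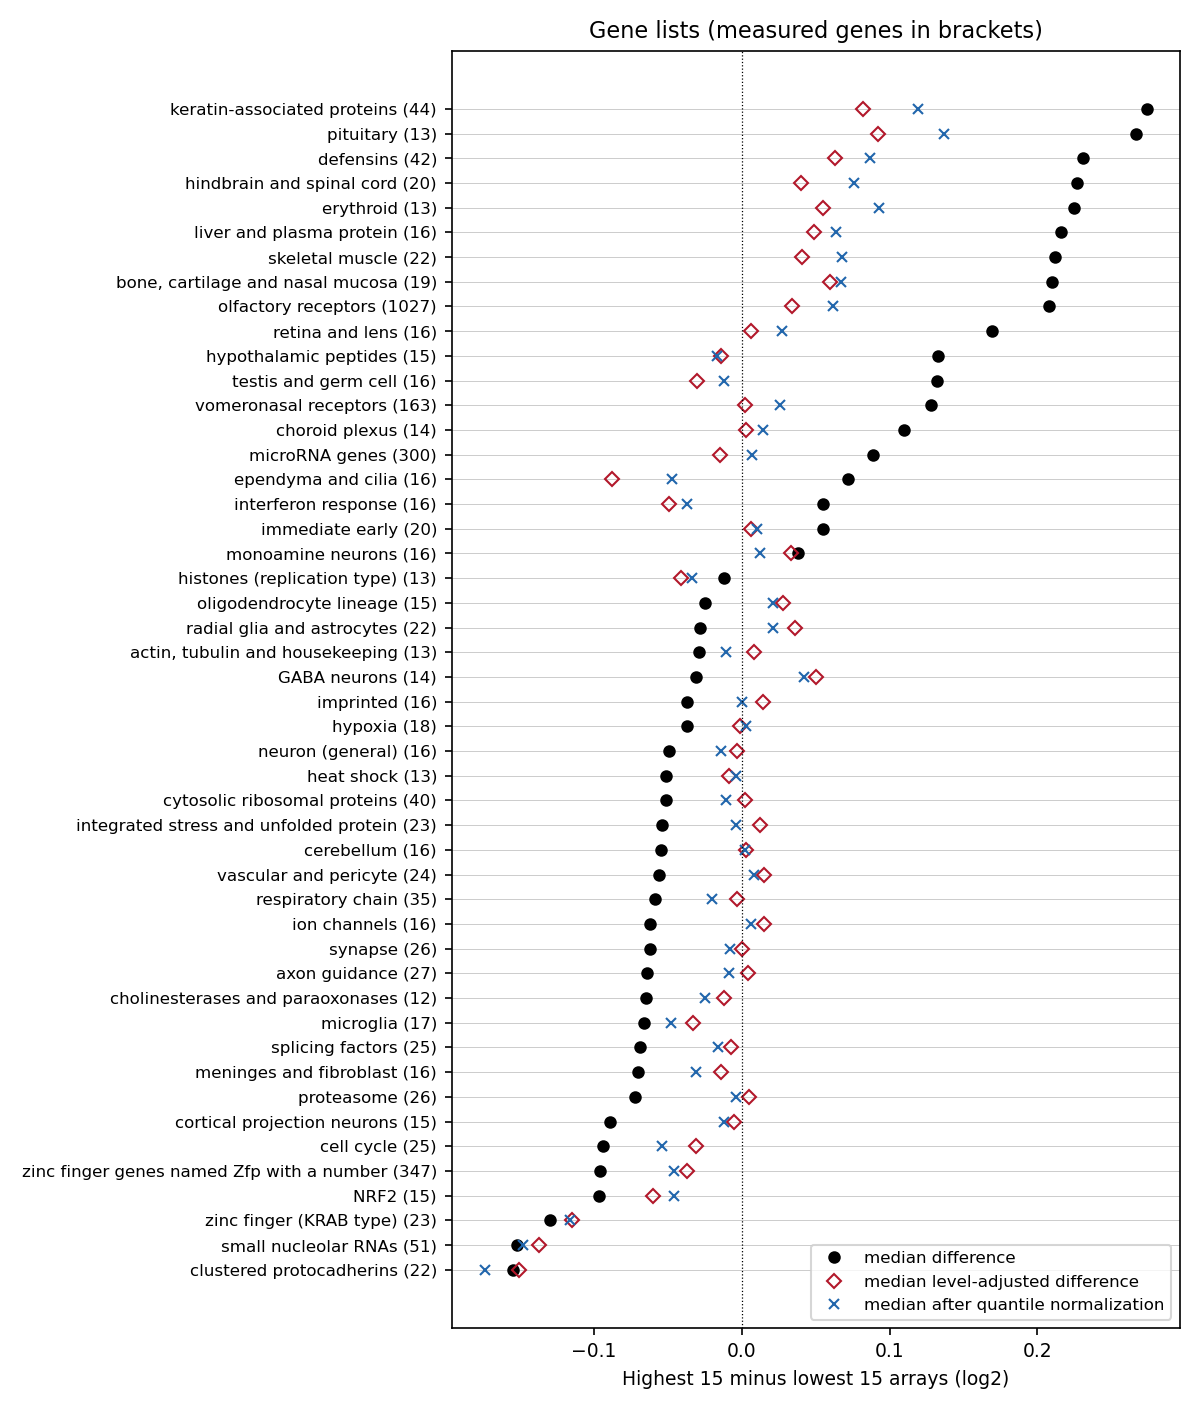
Median difference of 48 gene lists between the highest and lowest 15 arrays (log2, horizontal axis), with measured genes in brackets, as deposited (filled circles), after subtraction of the running median for level (diamonds) and after quantile normalization between arrays (crosses). Keratin-associated proteins stand highest at 0.27, and clustered protocadherins lowest at -0.16, and diamonds and crosses of most lists lie near 0.

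Gene families that the fetal brain hardly uses were among the highest. Olfactory receptor genes were higher in 991 of 1027 (median 0.21, 343 higher by 0.25 or more, where 13.6% of all clusters were) and vomeronasal receptor genes in 152 of 163 (0.13). Genes of keratin-associated proteins, which build hair, were higher in 44 of 44 (0.27, 25 by 0.25 or more, beside the same 13.6%) and the antimicrobial defensin genes in 41 of 42 (0.23). Dim genes made up 975, 162, 29 and 36 of these 4 families, in that order. Of all 6178 dim clusters 5562 were higher, 1755 of them by 0.25 or more, with a median of 0.19. Their list means did not overlap for olfactory receptors (4.98 to 5.16 against 4.77 to 4.93) or keratin-associated proteins (6.18 to 6.37 against 5.85 to 6.09). Krtap1-3 was at 7.75 to 8.10 (median 7.88) in the highest set against 7.34 to 7.64 (7.46), and the defensin gene Defb25 at 7.68 to 8.01 (7.83) against 7.07 to 7.68 (7.38), and neither overlapped. Beside level, the medians were 0.03 for olfactory receptors, 0.00 for vomeronasal receptors, 0.08 for keratin-associated proteins and 0.06 for defensins.

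Zinc finger genes, clustered protocadherins and small nucleolar RNAs were lower. The zinc finger genes and protocadherins are families with many near copies, and so are the receptor, keratin-associated protein and defensin genes above, which were higher. Probes of near copies can share signal, so single members of all these families are uncertain. The KRAB zinc finger genes, repressors of transposable elements, were lower in 22 of 23 (median -0.13), and so were 281 of 347 genes named Zfp with a number (-0.10), a list made after values were seen. Of the KRAB genes, Zfp119a ran from 6.56 to 7.21 (median 6.85) against 6.96 to 7.59 (7.12), and Zfp51 (-0.31), Zfp52 (-0.27) and Zfp160 (-0.24) followed. Clustered protocadherins, cell adhesion genes of neurons in a list also made after values were seen, were lower in 19 of 22 (-0.16), with Pcdhb9 at 6.35 to 6.84 (6.67) against 6.73 to 7.30 (7.12). In all 3 of these lists the medians kept their sign beside level (-0.12, -0.04 and -0.15).

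Small nucleolar RNAs, which guide the chemical modification of ribosomal RNA and are cut from introns of host genes, were lower in 43 of 51 (median -0.15, and -0.14 beside level) and 14 of them by 0.25 or more, where 1.64% of all clusters were. Snord61 ran from 5.46 to 6.51 (median 6.15) in the highest set and from 6.61 to 7.02 (6.79) in the lowest, a difference of -0.65 (SE 0.09) with no overlap. Snord58b ran from 3.69 to 4.44 (4.02) against 3.96 to 5.43 (4.71), and Snord42a from 6.76 to 7.47 (7.17) against 7.05 to 7.99 (7.72), both overlapping. The cytosolic ribosomal protein genes were lower in 33 of 40 (median -0.05, and 0.00 beside level), led by Rpl14 (-0.22) and Rpl8 (-0.17).

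**Figure D4:**
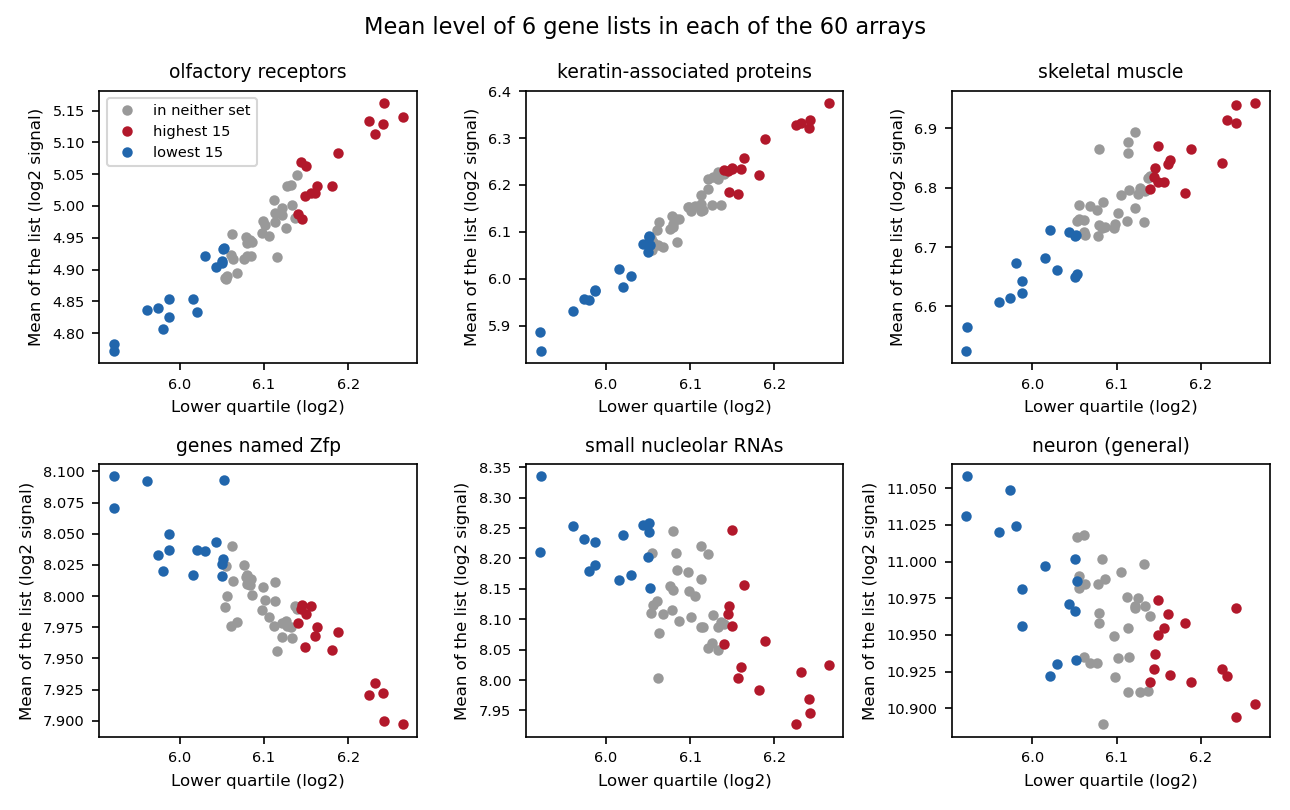
Mean log2 level of 6 gene lists in each array (vertical axes) against its lower quartile (log2, horizontal axes), with the 2 sets coloured and the 30 other arrays in grey. Olfactory receptors, keratin-associated proteins and muscle genes climb with the quartile, genes named Zfp descend, and the sets overlap for small nucleolar RNAs and neurons.

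The enzymes that organophosphates bind and the genes of the cell's stress responses had small list medians. Of 12 cholinesterase and paraoxonase genes 8 were lower (median -0.06, and -0.01 beside level). Prima1, which anchors acetylcholinesterase in brain membranes, ran from 7.137 to 7.54 (median 7.24) in the highest set against 6.68 to 7.136 (6.96), just short of overlap. Colq, the collagen tail of the muscle enzyme, was higher too (0.31), while Pon2 was lower (-0.20). Of the 15 targets and partners of NRF2, the regulator of the oxidative stress response, 12 were lower (median -0.10), among them Nfe2l2 itself (-0.16) and the cystine transporter gene Slc7a11 (-0.21). Immediate early genes, switched on by neuronal activity, were higher in 12 of 20 (median 0.06), with Fosb at 0.29 and Egr4 at 0.29. Heat shock genes were lower in 10 of 13 (median -0.05). Beside level the medians were -0.06 for NRF2 genes, 0.01 for immediate early genes and -0.01 for heat shock genes.

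Families were also set beside each other within a narrow range of levels. Between levels of 6.5 and 7.5, a window chosen after values were seen, 4156 clusters had a median difference of 0.12, and 69.1% were higher. In that window 55 of 55 olfactory receptor genes were higher (median 0.33), and so were 8 of 8 keratin-associated protein genes (0.35) and 6 of 6 defensin genes (0.31). By contrast 17 of 60 genes named Zfp (-0.15), 1 of 10 KRAB genes of the shorter list (-0.22), 2 of 10 small nucleolar RNAs (-0.16) and 0 of 9 protocadherins (-0.15) were higher. The range is not 1 level, and the families sat at different places in it, with median levels of 6.76 to 6.86 for the first 3 and 7.11 to 7.21 for the other 4. With level taken off inside the window, 52 of 55 olfactory receptor genes (median 0.17), 7 of 8 keratin-associated protein genes (0.17) and 6 of 6 defensin genes (0.15) lay above 0. Below 0 lay 52 of 60 genes named Zfp (-0.23), 10 of 10 KRAB genes (-0.30), 9 of 10 small nucleolar RNAs (-0.28) and 9 of 9 protocadherins (-0.26). Gene span, from the annotated start to the end, was set beside the difference for 21695 clusters. In 5 bins of equal size, the shortest genes had a median of 0.14 (0.02 beside level) and the longest -0.07 (-0.02 beside level), at median levels of 6.47 and 8.47.

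MicroRNA genes held both directions and their sequence is short enough to set beside the signal. Hairpins of the 3 with the largest difference in each direction follow, as RefSeq gives them (GRCm38.p6), written 5′ to 3′ with G and C in capitals to show base composition.
Mir379: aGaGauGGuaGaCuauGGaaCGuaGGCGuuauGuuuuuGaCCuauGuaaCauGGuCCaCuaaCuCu
Mir384: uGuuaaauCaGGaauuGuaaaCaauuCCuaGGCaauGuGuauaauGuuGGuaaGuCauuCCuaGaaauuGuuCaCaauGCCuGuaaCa
Mir1839: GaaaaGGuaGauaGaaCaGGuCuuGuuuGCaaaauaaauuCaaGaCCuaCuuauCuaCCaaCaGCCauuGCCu
Mir23a: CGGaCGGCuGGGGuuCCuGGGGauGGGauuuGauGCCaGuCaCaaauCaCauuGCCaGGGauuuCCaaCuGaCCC
Mir200c: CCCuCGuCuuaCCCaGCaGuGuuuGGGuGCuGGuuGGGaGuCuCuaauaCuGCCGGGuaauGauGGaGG
Mir196a-2: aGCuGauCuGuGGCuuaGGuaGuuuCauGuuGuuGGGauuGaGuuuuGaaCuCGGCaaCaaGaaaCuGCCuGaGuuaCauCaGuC
The first 3 lie at chr12:109709060-109709125 on the plus strand, chrX:105344282-105344369 on the minus strand and chr7:81529916-81529988 on the plus strand. The other 3 lie at chr8:84208518-84208592 (plus), chr6:124718322-124718390 (minus) and chr15:102973350-102973434 (plus).

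The lower group of these was poor in G and C, at 40.9% (Mir379), 33.0% (Mir384) and 37.0% (Mir1839) of bases. Mir379 ran from 4.65 to 5.61 (median 5.38) in the highest set and from 5.21 to 6.74 (6.06) in the lowest, a difference of -0.66 (SE 0.14). Mir384 was at -0.65 (SE 0.12) and Mir1839 at -0.61 (SE 0.11), all 3 with overlapping ranges. Of the higher group, Mir23a (56.0% G and C) ran from 6.75 to 7.35 (6.89) against 6.13 to 6.74 (6.52), with no overlap and a difference of 0.49 (SE 0.06). Mir200c (55.1%), a microRNA of epithelia, and Mir196a-2 (43.5%), which lies in a Hox cluster, also differed by 0.49, in overlapping ranges. Mir196a-2 was thus higher with a composition close to that of Mir379.

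Over the 260 of 305 microRNA clusters matched to a hairpin, the difference went with base composition, a feature chosen after values were seen. In 5 bins of 52 clusters, the bin with least G and C (28.4 to 41.4%) had 40 lower, with a median of -0.07. The bin with most (55.1 to 69.2%) had 50 higher, with a median of 0.28. The 3 bins between had medians of -0.06, 0.11 and 0.21. Pearson's r across the 260 clusters was 0.58 and Spearman's rho 0.61. Clusters share the arrays, and G and C content also went with level (r = 0.60), from a median of 4.49 in the first bin to 7.5 in the last. Beside level, the medians of the bins were -0.14, -0.19, -0.03, 0.04 and 0.18 (r = 0.61), and in the 30 arrays in neither set the unadjusted medians were -0.03, -0.01, 0.03, 0.04 and 0.07. The part that base composition has in the differences of other genes was not tested.

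**Figure D5:**
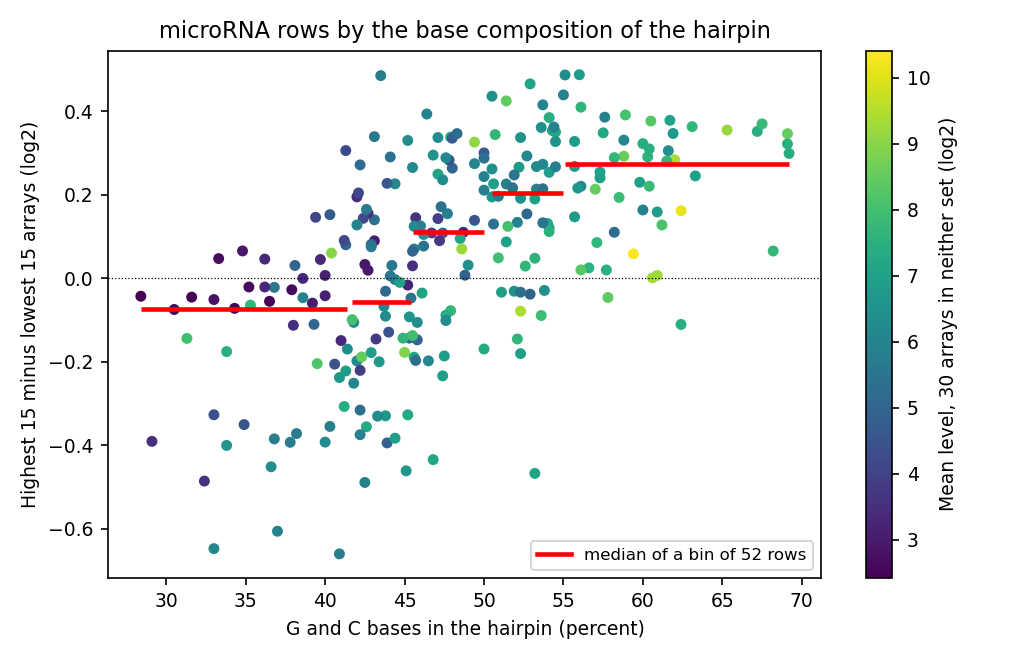
Difference between the highest and lowest 15 arrays (log2, vertical axis) against the percentage of G and C bases in the hairpin for 260 microRNA clusters, coloured by mean log2 level in the 30 arrays in neither set. The medians of 5 bins of equal size (red lines) run from -0.07 at the lowest to 0.28 at the highest percentages.

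The deposited values were also quantile normalized between arrays. By construction this removes the difference in quartiles, and with it most of the difference that follows level. With the sets kept, 1160 clusters then differed by 0.25 or more, 451 higher and 709 lower, and -1.8% of the variance followed level, that is none. Of the clusters counted before, 675 were counted after with the same sign, 410 higher and 265 lower. Zfp931 was at -0.92, Dnajc13 at -0.84, Snord61 at -0.80, Olfr767 at 0.88 and Krtap5-3 at 0.54. The neuron median was -0.01 and the synapse median -0.01, against -0.15 for small nucleolar RNAs, -0.12 for KRAB zinc finger genes, -0.17 for protocadherins, 0.12 for keratin-associated proteins and 0.07 for muscle genes. The 5 bins of microRNA clusters had medians of -0.14, -0.17, -0.01, 0.07 and 0.20.

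The study's CPO comparisons were run with and without the lower quartile of each array. In limma, fitted to 12 labelled groups over all 60 arrays, 0 of 21789 clusters (0%) passed an adjusted p of 0.05 in each of the 8 contrasts of a dose with dose 0. Groups are by label, and the Pon1 level went with the label in only 2 of 5 KO arrays at 0.75 and 3 of 5 at dose 0. The KO contrast at 0.75 is therefore not a clear comparison of knockouts. Without the arrays against their label it had 0 clusters passing. At an unadjusted p under 0.05 there were 2217 clusters for WT at 0.75 mg/kg/d and 400 to 1157 for the other 7. Single arrays moved these counts by more than 1.5 times in 7 of the 8 contrasts. The WT count at 0.75 was 1147 without replicate 1 of WT at dose 0 and 1147 without replicate 3 of WT at 0.75, and that of R-tg at 0.85, 1058, was 2850 without its replicate 5 and 594 without replicate 1 of R-tg at dose 0. With the lower quartile as a covariate the WT count at 0.75 fell to 1183, a change no larger than that of leaving out 1 array. Each of the other 7 counts rose, to 706 to 1708 from 400 to 1157. With the covariate 0 passed in all 8. With array weights 39 clusters passed for WT at 0.75 and 1, Ccnq, for R-tg at 0.85. Of the 39, 9 were higher and 30 lower at 0.75, the label with 3 of its 5 arrays in the lowest set.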

How the data were processed

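Fetal brain RNA of 60 dams was measured on Affymetrix Mouse Gene 1.0 ST arrays, 1 array per dam. The values are log2 signals deposited by the authors, made with RMA in oligo 1.22.0 under R 2.15.1, per the submitters' processing notes. Which arrays were normalized together is not given in the sources used here. Values were used as deposited. The number of arrays limits the precision, and the p-values measure the spread between pools of separate dams.

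GEO's platform annotation gave 1 symbol for 21789 of 28858 transcript clusters (19938 genes), several for 1621 and none for 5448. Only the first were compared. Older names in the gene lists were matched through RefSeq (GRCm38.p6), which also gave gene spans and hairpins.

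Arrays were ranked by their 25th percentile over all clusters. Differences are the mean log2 signal of the highest 15 minus that of the lowest 15, with the SE from the SDs of both sets. The level line is a running median of 501 clusters. The labels were tested with 100000 permutations or exactly, and CPO contrasts with limma 3.58.1 in R 4.3.3, all 2-sided with Benjamini-Hochberg adjustment. Python 3.11.15, numpy 2.4.6, pandas 2.3.3 and scipy 1.17.1 were used. The scripts were tested on simulated data.

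Named genes are the 8 with the largest difference in each direction, the 8 with the largest level-adjusted difference in each direction above the dim level, the 4 of each list that differ most (of which some are given), and 6 array descriptors. In the first 2 groups the next gene was taken in place of predicted genes, clone names and small RNA genes. Any other gene was named after its values were seen. The sets, the lists and the thresholds were chosen with earlier results of these data known. Alternatives were other set sizes, scaling, quantile normalization, labels, filters, thresholds, array weights and leaving out each array.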

Additional observations from a re-analysis of the deposited data

How the results depend on the processing

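The count of clusters that differ by 0.25 or more, with those higher, lower and not overlapping between sets, was 3312, 2955, 357 and 307 as reported. It was 5411, 4536, 875 and 2553 with 10 arrays a set, and 1908, 1688, 220 and 34 with 20. In the 30 arrays in neither set it was 23, 4, 19 and 0, and after quantile normalization 1160, 451, 709 and 147. With labelled group means removed it was 1987, 1783, 204 and 106. Centring each array on its median gave 1767 higher and 749 lower (70.2% higher against 89.2%). Without the arrays against their label 546 were lower and 1009 did not overlap. Clusters above the dim level held 1479, 1200 of them higher, and 588 were lower over all clusters of the array. At 0.5 or more there were 20, 6 higher and 14 lower. Leaving out 1 array gave 3044 to 3524, 2719 to 3131 higher, 318 to 410 lower, 307 to 418 apart, and 43.6 to 44.7% following level. That share, 44.2% as reported, was -1.8% after quantile normalization, which removes most of it by construction. It was 22.2% in the 30 arrays, 40.7% with the percentile over clusters with 1 symbol and 36.2% over all clusters. It was 28.8% above the dim level, an alternative added after seeing the data. So was leaving out the 3 lowest WT arrays at 0.75, which gave 2999, with 2669 higher, 330 lower and 365 apart. Of the 46 lists not made after values were seen, quantile normalization turned the median difference of 11, the 30 arrays that of 9, and centring and the dim filter that of 1 each. The level-adjusted median, near 0 in many lists, turned in 14 in the 30 arrays, 9 with the percentile over clusters with 1 symbol, 8 with 10 arrays a set, and 0 to 6 under each other alternative. Pon1 turned in the 30 arrays (-0.33, level-adjusted -0.321) and with the percentile over clusters with 1 symbol (-0.185 and -0.11). Of the 28 genes named for their size, Pon1 was the only one to turn in the 30 arrays, and of the 6 descriptors Pon1 and Xist did. Of the 191 clusters that lead the lists 13 did, among them Nes, Fcrls and Dlx6, and quantile normalization turned 3.

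For CPO, the difference in lower quartile turned for KO at 0.75 with the 10th percentile (-0.0073) and for Q-tg at 0.85 with the 10th percentile (0.0033) or without arrays against their label (0.0031), each near 0. Without 1 replicate it was -0.0941 to -0.0589 for WT at 0.75, 0 to 0.0693 for WT at 0.85, -0.0381 to 0.0121 for KO at 0.50, -0.0158 to 0.0369 for KO at 0.75, -0.0372 to -0.011 for Q-tg at 0.75, -0.0377 to 0.0057 for Q-tg at 0.85, -0.0131 to 0.0669 for R-tg at 0.75 and -0.0133 to 0.0667 for R-tg at 0.85. limma counts for WT at 0.75 were 1 above the dim level, 39 with array weights and 0 to 1 without 1 replicate (1 without replicate 1 or 5), and for R-tg at 0.85 1 with array weights. With the replicate number as a block 0 passed in all 8, and 2210 clusters had an unadjusted p under 0.05 for WT at 0.75. Without 1 array the counts at an unadjusted p under 0.05 were 1147 to 2806 for WT at 0.75, 266 to 1490 for WT at 0.85 (lowest without its replicate 4, highest without its replicate 2, and 727 without replicate 1 at dose 0), 316 to 768 for KO at 0.50 and 458 to 1152 for KO at 0.75 (both highest without replicate 3 at dose 0), 325 to 689 for Q-tg at 0.75 (lowest without its replicate 5), 598 to 982 for Q-tg at 0.85, 518 to 1801 for R-tg at 0.75 (without replicates 1 and 4 at dose 0) and 594 to 2850 for R-tg at 0.85. The blocked exact p of the lower quartile of WT at 0.75 was 0.0625, the smallest that 5 pairs allow. Same-numbered arrays did not deviate together in the median (correlation -0.014 against 0.007 for other numbers, 0 of 66 pairs of groups with all above 0.1). Single same-number correlations ran from -0.55 to 0.65, so a weaker link cannot be told from these values. The numbers were not used as pairs in the main fits. The causes of these changes were not tested. Signal over background limits what the dim clusters can show. No other background correction was run.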
